A study of Sus scrofa with 24 samples.

Results

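Gene expression in loin muscle was compared between pigs fed soybean oil and pigs fed coconut oil. The groups were chosen by the fat named in the sample labels and comprised 12 of the 24 pigs of the series, 6 fed soybean oil (3 gilts, which are young females, and 3 barrows, which are castrated males) and 6 fed coconut oil (3 gilts and 3 barrows). All were Landrace × Large White × Duroc crossbreds whose feed held 3.0% of the named fat, and they weighed about 71 kg at about 130 days of age when the diets were allotted. Age and weight at sampling are not given in the sources used here. The remaining 12 pigs received olive oil or beef tallow at the same level. Pens held 3 pigs each, but which pen a sampled pig came from is not stated in the labels, so each pig counted as 1 independent sample and the p-values do not allow for pens. Pigs are called by the number in their sample title: 3, 9 and 11 (gilts) and 13, 14 and 19 (barrows) were fed soybean oil, and 1, 5 and 6 (gilts) and 15, 20 and 23 (barrows) were fed coconut oil.

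The fats differ in chain length and saturation. Coconut oil is rich in saturated medium-chain fatty acids, of which lauric acid is the main one, and soybean oil in linoleic acid, a polyunsaturated fatty acid of the n-6 family that pigs cannot make. Longissimus dorsi is the main muscle of the loin and consists mostly of fast fibres. Between the fibres lie fat cells, whose stored triglyceride is seen as marbling, and a connective tissue scaffold made by fibroblasts. Fatty acids from the diet can be burned in muscle mitochondria or stored in these fat cells, and polyunsaturated fatty acids are known to lower the expression of fatty acid synthesis genes in the liver of rodents.

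Each array measured total RNA of 1 muscle sample with 23999 probe sets other than controls, reported as linear signal intensities. Values below are signals as deposited, and differences are soybean oil minus coconut oil on the log2(signal + 1) scale with the SE of limma, adjusted for sex (6 pigs per fat). The muscle genes CKM (creatine kinase), MYLPF (fast myosin light chain) and TTN (titin) lay between percentiles 99.8 and 99.97 of all probe sets by mean level, as in skeletal muscle, and ACTA1 was not measured under that symbol. Array medians averaged a signal of 157.0 ± 7.49 with soybean oil, against 147.3 ± 6.68 with coconut oil (SD, n = 6), a difference of 0.09 on the log2 scale (two-sided exact permutation of fats within sex, p = 0.01; the smallest possible p is 0.005). Results on arrays centred on their median, which removes that difference, are given where they change a call or a direction. For GAPDH, the 3' over 5' log2 signal ratio, a sign of RNA integrity, was 0.13 ± 0.07 with soybean oil, against 0.19 ± 0.05 with coconut oil (SD, n = 6; p = 0.145 by the same exact test). The same ratio for actin was larger, 1.31 ± 0.25 with soybean oil, against 1.26 ± 0.20 with coconut oil (p = 0.71 by the same exact test). Pig 11 had the lowest mean correlation with the other arrays, 0.912, against 0.928 to 0.933 for the other pigs fed soybean oil.

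With soybean oil, fat cell genes such as FABP4 (1.95-fold) and ADIPOQ (3.38-fold) and matrix genes such as POSTN (2.14-fold) had higher levels than with coconut oil. FOXO1 and FBXO32, genes of muscle protein breakdown, differed by -0.85 and -1.25 on the log2 scale, with lower levels with soybean oil. BNIP3L, listed with them, went the other way by 0.72. In FABP4, ADIPOQ, POSTN, FOXO1 and FBXO32 the 6 pigs fed soybean oil did not overlap with the 6 fed coconut oil. Over all probe sets, however, no difference passed the threshold: 0 of 23999 (0%) had a limma adjusted p under 0.05 (Benjamini-Hochberg). The smallest adjusted p was 0.0887, shared by 10 probe sets. At an unadjusted p under 0.05 there were 2595 probe sets. With each of 6765 named genes taken by its brightest probe set, 628 genes (9.28%) had an unadjusted p under 0.05 with a higher level with soybean oil and 175 (2.59%) with a lower level. The median gene differed by 0.04 and 56.5% of genes had a positive difference. In 65 genes (0.961%) all 6 pigs fed soybean oil lay above all 6 fed coconut oil, and in 11 genes (0.163%) all 6 lay below. Counts of members of gene lists are to be read against these shares.

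Among the 14399 brighter probe sets, those with a mean signal over the 24 arrays at or above the 40th percentile (94.1), 49 passed the threshold. Of these, 48 (0.333%) were higher with soybean oil, by 0.58 to 2.26 with a median of 0.99 (the highest value is that of MAL2, whose 6 pigs fed coconut oil were all under 94.1), and 1 (0.00694%) was lower, a probe set without a gene symbol that differed by -0.68. The 49 included 31 probe sets with a symbol, for 30 genes. In 34 of the 49 the pigs of the groups did not overlap, against 154 (1.07%) of all brighter probe sets. The 49 were chosen by their p in the same pigs, which favours groups that do not overlap. Their larger share is therefore no further support. In 5 of the 49 all 6 pigs fed coconut oil were under 94.1, and with signals under that floor set to it 0 of those 5 and 43 of the 49 passed. The count depends on single pigs and on scaling. Leaving out 1 pig at a time, 0 probe sets passed when the pig was number 6, 14, 15 or 19. The count became 1 on leaving out pig 1, 7 for pig 9, 11 for pig 11, 22 for pig 13, 20 for pig 20, 31 for pig 23, 53 for pig 5 and 79 for pig 3. Of the 53 without pig 5, 32 were among the 49. The count was also 0 with the arrays centred on their median, 4 after quantile normalization and 11 without the sex covariate. It was 0 when all 24 arrays shared 1 estimate of the spread. All 49 kept their sign in each of these runs, which reuse the pigs by which the 49 were chosen. A gene is said below to have passed only in the sense of this restricted set. In that sense FABP4 and ADIPOQ passed, and POSTN, FOXO1 and FBXO32 did not.

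Genes of fat cells were among those with the largest differences. In this bulk tissue, more fat cells and more RNA per fat cell cannot be told apart. FABP4, the fatty acid carrier of adipocytes, had signals of 9775 to 18670.3 (median 11602) with soybean oil, against 5114 to 8833 (median 5730.4) with coconut oil. All 6 pigs fed soybean oil lay above all 6 fed coconut oil. The difference was 0.96 ± 0.14, a 1.95-fold difference (limma adjusted p = 0.0234 among the brighter probe sets and 0.0887 among all). PPARG, the nuclear receptor that drives fat cell formation, had signals of 268 to 734 (median 398) with soybean oil, against 128 to 204 (median 175) with coconut oil, again with no overlap. It differed by 1.34 ± 0.24 (adjusted p = 0.0329 among the brighter probe sets and 0.128 among all).

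ADIPOQ, which encodes the adipocyte hormone adiponectin, had signals of 1602 to 6967 (median 2497) with soybean oil, against 324 to 1221 (median 1106) with coconut oil. The groups did not overlap, although pig 20 lay well below the other pigs fed coconut oil. ADIPOQ differed by 1.76 ± 0.34, a 3.38-fold difference (adjusted p = 0.0394 among the brighter probe sets and 0.14 among all), and by 1.56 without pig 20. CIDEA, a lipid droplet protein that helps droplets fuse, had signals of 205 to 448 (median 324) with soybean oil, against 72.0 to 211 (median 165) with coconut oil, and LIPE, the hormone-sensitive lipase that releases fatty acids from the droplet, 908 to 2624 (median 1471) with soybean oil, against 311 to 1205 (median 833) with coconut oil. The ranges overlapped in both genes. They differed by 1.11 ± 0.20 and 1.02 ± 0.19 (adjusted p = 0.0337 and 0.0394 among the brighter probe sets).

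Of the 14 measured adipocyte markers, 5 passed (the genes above), and 10 had an unadjusted p under 0.05 with a higher level and 1 with a lower level. In all, 11 differences were positive and 3 negative, and the median difference was 0.99. LEP, the hormone leptin, had signals of 128 to 195 (median 161) with soybean oil, against 102 to 142 (median 115) with coconut oil, and differed by 0.43 ± 0.15 (unadjusted p = 0.0141, adjusted p = 0.352). Named after their values were seen, RBP4 (retinol carrier) differed by 1.70 ± 0.41, CEBPA (a transcription factor that acts with PPARG) by 1.28 ± 0.40, PCK1 (which supplies glycerol backbones for triglyceride in fat cells) by 1.76 ± 0.77 and CFD (adipsin) by 0.46 ± 0.15. ADRB3, the β3-adrenergic receptor of fat cells, went the other way by -0.80 ± 0.33, and all 6 pigs fed soybean oil lay below all 6 fed coconut oil. LPL and SLC2A4, which muscle fibres also express, differed by 0.34 ± 0.19 and -0.18 ± 0.26. The summed signal of the list was 23536 to 43362 with soybean oil (median 31887), against 13740 to 25883 with coconut oil (median 19620), and 5 of the 6 pigs fed soybean oil lay above every pig fed coconut oil.

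**Figure D1:**
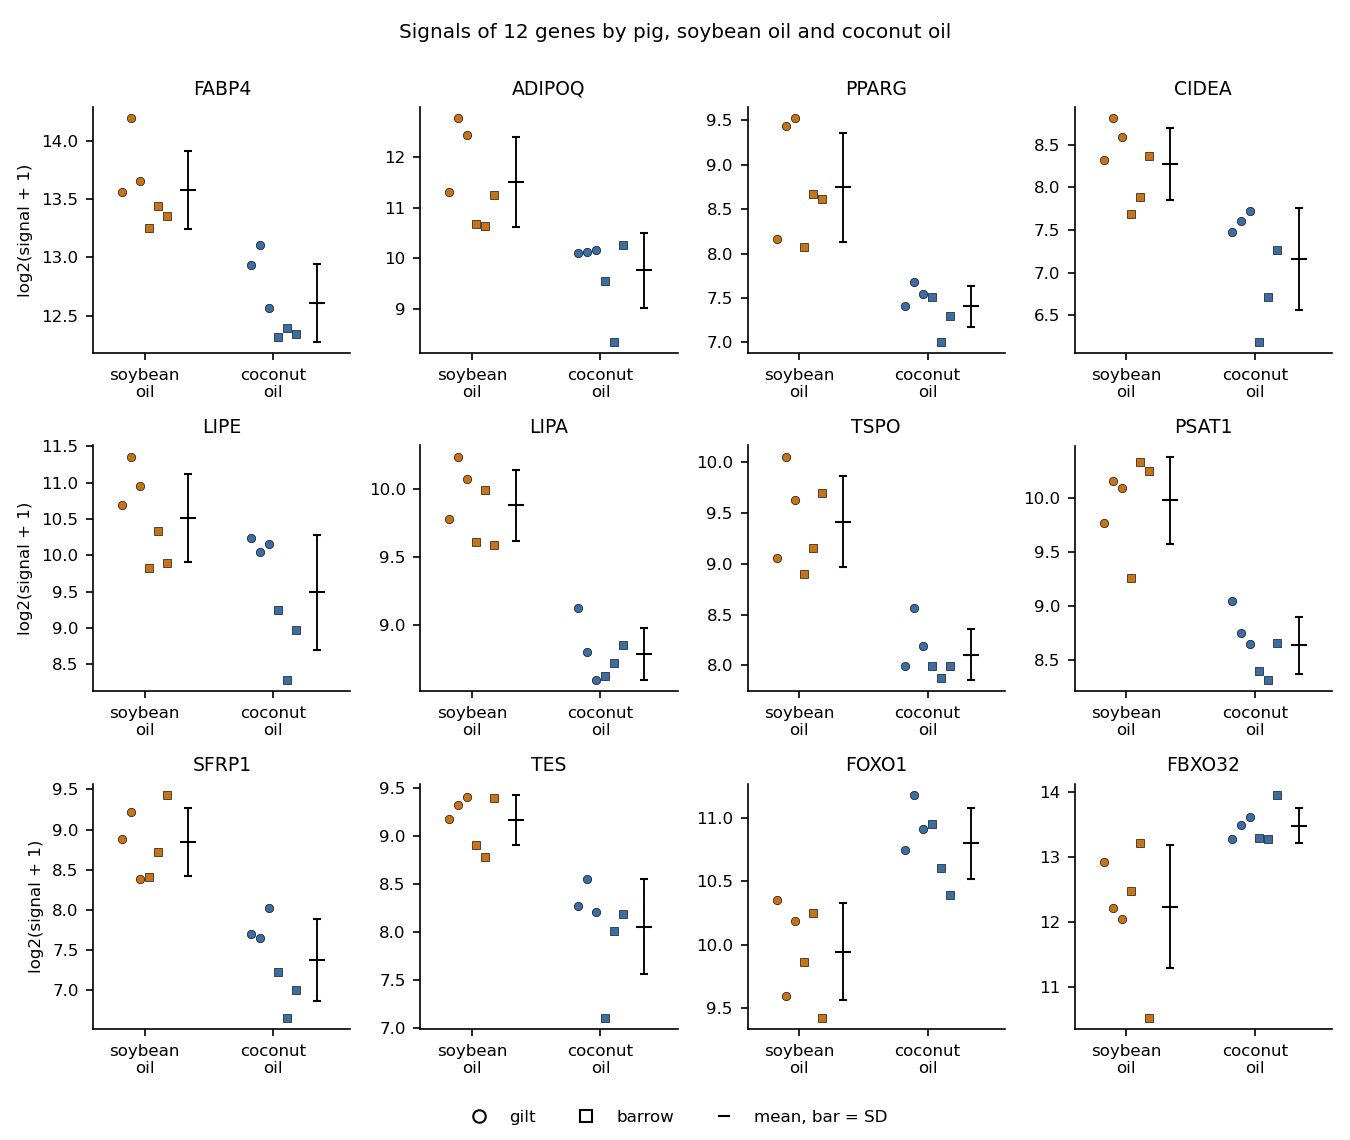
Log2(signal + 1) of 12 genes in each pig fed soybean oil (left) or coconut oil (right), circles for gilts and squares for barrows, with the mean and SD of each group (n = 6) beside the points. The groups do not overlap for FABP4, ADIPOQ, PPARG, LIPA, TSPO, PSAT1, SFRP1, TES, FOXO1 and FBXO32, and for FOXO1 and FBXO32 the pigs fed soybean oil are the lower ones.

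Fatty acid and triglyceride synthesis genes differed less uniformly. Of 20 measured members, 6 had an unadjusted p under 0.05 with a higher level and 0 with a lower level, 1 passed, and the median difference was 0.34. The member that passed was PC, pyruvate carboxylase, which feeds carbon into citrate for export from the mitochondrion. Its signals were 1104 to 2284 (median 1512) with soybean oil, against 626 to 1046 (median 879) with coconut oil, with no overlap, and it differed by 0.90 ± 0.15 (adjusted p = 0.0329 among the brighter probe sets). TKT and PGD, enzymes of the pentose phosphate pathway, the second of which makes NADPH, differed by 0.86 ± 0.18 and 0.86 ± 0.20 and did not pass (adjusted p = 0.0559 and 0.0795 among the brighter probe sets). Neither gene's groups overlapped.

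The core lipogenic enzymes varied widely between pigs. FASN, fatty acid synthase, had signals of 265 to 4439 (median 603) with soybean oil, against 177 to 1829.8 (median 296) with coconut oil. SCD, the Δ9-desaturase that makes oleic acid, had 261 to 7435 (median 789.6) with soybean oil, against 243 to 5596 (median 288) with coconut oil. Pig 19 was the highest pig fed soybean oil for both genes, and pig 23 stood far above the other pigs fed coconut oil. FASN differed by 1.23 ± 0.66 (unadjusted p = 0.0891), by 1.62 without pig 23 and by 0.84 without pig 19, while SCD differed by 1.06 ± 0.87 (unadjusted p = 0.249), by 1.71 without pig 23 and by 0.56 without pig 19. ELOVL6, which elongates palmitic acid, had signals of 745 to 3666 (median 1235) with soybean oil, against 358 to 1649.9 (median 445) with coconut oil, and DGAT2, which completes triglycerides, 330.3 to 2015 (median 765) with soybean oil, against 196 to 781 (median 242) with coconut oil. The same pair of pigs was highest in its group. ELOVL6 differed by 1.35 ± 0.47 and DGAT2 by 1.46 ± 0.45 (unadjusted p = 0.0153 and 0.00805), by 1.66 and 1.76 without pig 23 and by 1.09 and 1.18 without pig 19. Without pig 23 the adjusted p over all probe sets was 0.487 for SCD, 0.46 for FASN, 0.292 for ELOVL6 and 0.24 for DGAT2. SREBF1, the lipogenic transcription factor, and FADS2, the first desaturase of linoleic acid, were dim, with 4 and 5 of 6 pigs fed soybean oil under the floor of 94.1, and differed by -0.73 ± 0.51 and 0.65 ± 0.50. With signals under the floor set to it these differences were -0.13 and 0.06. Leaving out single pigs, SREBF1 lay between -1.17 (without pig 15) and -0.49 (without pig 1), and FADS2 between 0.34 (without pig 11) and 0.99 (without pig 23).

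**Figure D2:**
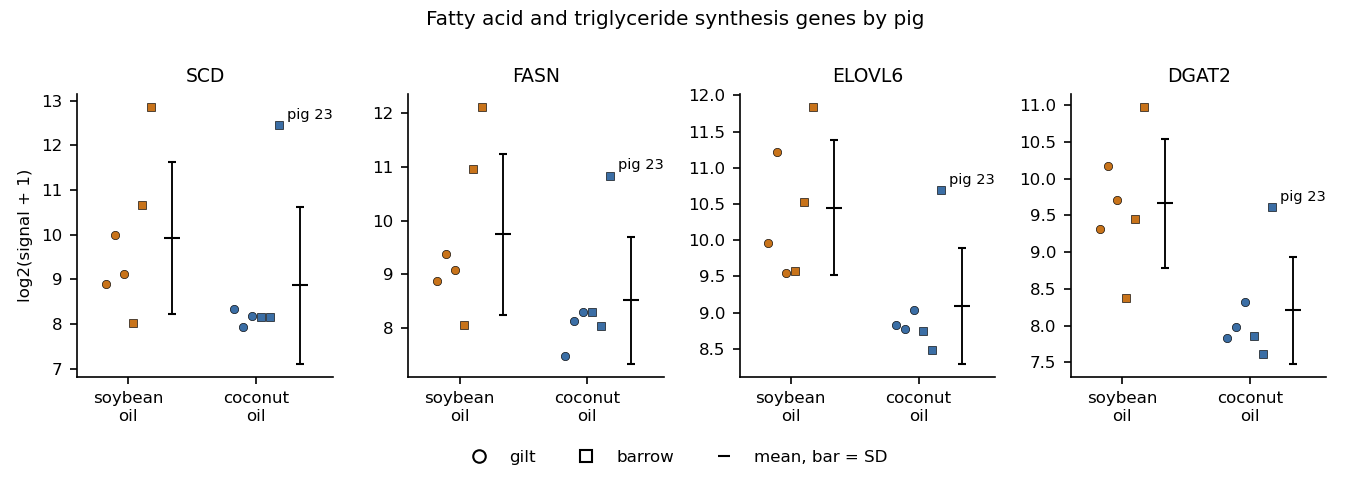
Log2(signal + 1) of SCD, FASN, ELOVL6 and DGAT2 in each pig fed soybean oil (left) or coconut oil (right), circles for gilts and squares for barrows, with mean and SD (n = 6). Pig 23, a barrow fed coconut oil, has a SCD signal of 5596 where the other 5 pigs fed coconut oil have 243 to 321.

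Other genes of lipid handling and redox metabolism passed. LIPA, the lysosomal acid lipase that frees fatty acids from cholesteryl esters and triglyceride, had the smallest p of the 30 genes that passed. Its signals were 771 to 1208 (median 949.6) with soybean oil, against 386 to 556 (median 433) with coconut oil, with a wide gap between the groups. It differed by 1.10 ± 0.14 (adjusted p = 0.0234 among the brighter probe sets, 0.0887 among all), and its other probe set, also without overlap, by 0.77. TSPO, a cholesterol-binding protein of the outer mitochondrial membrane, had signals of 476 to 1064 (median 681) with soybean oil, against 234 to 379 (median 255) with coconut oil, and differed by 1.31 ± 0.20. ORMDL3, a regulator of sphingolipid synthesis, had 1232 to 2440.4 (median 1728) with soybean oil, against 825 to 1312 (median 912) with coconut oil, with overlapping groups, and differed by 0.83 ± 0.14. VAMP8, a fusion protein of endosomes and lysosomes, had 779.5 to 1203 (median 817) with soybean oil, against 468 to 617 (median 530.1) with coconut oil, without overlap, and differed by 0.71 ± 0.13.

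MGST1, a membrane-bound glutathione transferase, had signals of 1037 to 3069 (median 1484) with soybean oil, against 389.8 to 944 (median 465) with coconut oil, with no overlap, and differed by 1.56 ± 0.31. CDO1, cysteine dioxygenase, which starts the breakdown of cysteine to taurine, had 776 to 1772 (median 1183) with soybean oil, against 358 to 694 (median 443) with coconut oil, and differed by 1.34 ± 0.23. PTGR1, which inactivates prostaglandins and leukotrienes, had 616 to 1848 (median 1081) with soybean oil, against 364 to 641 (median 548) with coconut oil, and differed by 0.99 ± 0.19. The groups were apart for CDO1 and met at the edge for PTGR1. SULT1A3, a sulfotransferase, and MOCS2, which takes part in molybdenum cofactor synthesis, differed by 0.91 ± 0.17 and 0.99 ± 0.16. The adjusted p of the 5 genes lay between 0.0277 and 0.0394 among the brighter probe sets.

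Several genes that passed had signals near or under the floor. CYP39A1, an oxysterol hydroxylase of bile acid synthesis, had signals of 81.2 to 189 (median 112) with soybean oil, against 16.6 to 53.0 (median 35.7) with coconut oil, and MAL2, a membrane traffic protein, 106 to 419 (median 161) with soybean oil, against 17.7 to 84.9 (median 32.0) with coconut oil. All 6 pigs fed coconut oil were under the floor for both genes. CYP39A1 differed by 1.88 ± 0.31 and MAL2 by 2.26 ± 0.45, and by 0.40 and 0.89 when signals under the floor were set to it, where neither passed (adjusted p = 0.252 and 0.145 among the brighter probe sets). RABEPK, an effector of Rab9 in endosome traffic, also had all 6 pigs fed coconut oil under the floor and differed by 0.71 ± 0.11 (0.37 with signals set to the floor, adjusted p = 0.181). GLIPR1, with 5 pigs there, differed by 1.23 ± 0.24 (0.72 with signals set to the floor, adjusted p = 0.0412).

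PSAT1, phosphoserine aminotransferase of serine synthesis, had signals of 611 to 1295 (median 1120.5) with soybean oil, against 318 to 530.1 (median 402) with coconut oil. Every pig fed soybean oil lay above every pig fed coconut oil, and the difference was 1.34 ± 0.20 (adjusted p = 0.0234 among the brighter probe sets). In the list of amino acid synthesis and integrated stress response, of 21 measured genes, 2 had an unadjusted p under 0.05 with a higher level and 0 with a lower level, and the median difference was 0.08 (-0.01 on arrays centred on their median). SLC1A5, a glutamine transporter, had signals of 903 to 1309.5 (median 1014) with soybean oil, against 737 to 932 (median 826) with coconut oil, and differed by 0.32 ± 0.10, and MTHFD2, a mitochondrial folate enzyme, by 0.25 ± 0.15.

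Genes of connective tissue were mostly higher with soybean oil, though 0 of the 26 fibroblast and matrix genes passed. In this list 17 genes had an unadjusted p under 0.05 with a higher level and 0 with a lower level, 25 of 26 differences were positive, and the median was 0.43. POSTN, the matrix protein periostin, had signals of 388 to 1035 (median 582) with soybean oil, against 203 to 367 (median 272) with coconut oil. THY1, a surface protein of fibroblasts, had 3519 to 5684 (median 4137) with soybean oil, against 2257 to 3434 (median 2589) with coconut oil. Neither gene's groups overlapped. POSTN differed by 1.10 ± 0.26 and THY1 by 0.67 ± 0.16 (adjusted p = 0.0795 and 0.0803 among the brighter probe sets). FAP, a protease of activated fibroblasts, had 686 to 1297 (median 1035) with soybean oil, against 479 to 759 (median 626) with coconut oil, with overlap, and differed by 0.71 ± 0.16 (adjusted p = 0.0766). COL1A2, a chain of collagen I, had 807 to 2350.3 (median 1183) with soybean oil, against 659 to 1162 (median 821) with coconut oil, with overlap, and differed by 0.61 ± 0.22 (adjusted p = 0.195). COL3A1, a chain of collagen III named after its value was seen, differed by 0.08 ± 0.32.

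The list of collagen folding and crosslinking held 16 genes, of which 8 had an unadjusted p under 0.05 with a higher level and 0 with a lower level, and its median was 0.36. FKBP14, a prolyl isomerase that helps collagen fold, has 3 probe sets. The one that passed had signals of 179.6 to 339 (median 236) with soybean oil, against 93.5 to 138 (median 121) with coconut oil, and differed by 1.01 ± 0.17. The brightest one did not overlap either and differed by 0.70 ± 0.17, but the third differed by 0.06 ± 0.24. CRTAP, a cartilage-associated protein of the collagen hydroxylase complex, differed by 0.51 ± 0.13 without overlap, and FKBP10, another collagen isomerase, by 0.62 ± 0.19 with overlap. Of 8 basement membrane genes 4 had an unadjusted p under 0.05 with a higher level and 0 with a lower level (median 0.39). NID2, the linker protein nidogen 2, had signals of 872 to 2286 (median 1374) with soybean oil, against 589 to 1040.5 (median 693) with coconut oil, and differed by 0.82 ± 0.18 (adjusted p = 0.0637), LAMB1, a laminin chain, by 0.57 ± 0.13 and COL4A2, a chain of collagen IV, by 0.54 ± 0.19.

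SFRP1, a secreted inhibitor of Wnt signalling, passed with both of its probe sets. The brighter one had signals of 334 to 690.0 (median 447) with soybean oil, against 99.6 to 259.7 (median 175) with coconut oil, and the other 172 to 333 (median 247) with soybean oil, against 67.4 to 176 (median 124) with coconut oil. The groups did not overlap for the brighter one and barely met for the other. They differed by 1.47 ± 0.24 and 1.14 ± 0.23 (adjusted p = 0.0277 and 0.0394 among the brighter probe sets). Of 14 Wnt and TGF-beta signalling genes, 5 had an unadjusted p under 0.05 with a higher level and 0 with a lower level, with a median of 0.30. TCF7L2, a transcription factor of the Wnt pathway, differed by 0.54 ± 0.16 and DKK3, a secreted protein of the dickkopf family, by 0.79 ± 0.31. THBS1, the matrix glycoprotein thrombospondin 1, passed with signals of 361 to 943 (median 798) with soybean oil, against 207 to 581 (median 324) with coconut oil, and a difference of 1.02 ± 0.20, but 2 of its other 4 probe sets had the opposite sign.

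The actin cytoskeleton and adhesion list held 28 genes, of which 12 had an unadjusted p under 0.05 with a higher level and 0 with a lower level (median 0.35), and 1 passed. TES, a focal adhesion protein, had signals of 439 to 675 (median 607) with soybean oil, against 136 to 373 (median 293) with coconut oil. The groups did not overlap, and pig 15 was the lowest by a wide gap. TES differed by 1.11 ± 0.20 (adjusted p = 0.0347 among the brighter probe sets), and by 0.94 without pig 15. ANXA2, an annexin that binds membranes and actin, differed by 0.70 ± 0.16 and S100A11, a calcium-binding protein, by 0.71 ± 0.17 without overlap. PARVA, an adaptor of integrin adhesions outside the list, passed with signals of 443 to 567 (median 503) with soybean oil, against 281 to 389 (median 344) with coconut oil, no overlap and a difference of 0.58 ± 0.11. DAB2, an endocytic adaptor, passed with 210.2 to 306 (median 232) with soybean oil, against 99.5 to 159.6 (median 139.8) with coconut oil, no overlap and a difference of 0.85 ± 0.16.

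The remaining named genes that passed were SRI (sorcin, a calcium-binding protein), which differed by 0.79 ± 0.15, SRSF6 (a splicing factor) by 0.78 ± 0.15, NSL1 (a kinetochore protein) by 0.68 ± 0.14 and FAM149A by 0.95 ± 0.17. SRI had signals of 837 to 1067 (median 933) with soybean oil, against 453 to 828 (median 504) with coconut oil, with pig 5 the highest of the pigs fed coconut oil.

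Markers of the other cell types that muscle tissue holds were counted in the same way. Of 18 endothelial and mural markers 3 had an unadjusted p under 0.05 with a higher level and 1 with a lower level (median 0.26). CD34 differed by 0.40 ± 0.11, VWF (von Willebrand factor) by 0.44 ± 0.15 and MCAM by 0.43 ± 0.16. Summed signals of this list were 51264 to 65250 with soybean oil, against 48941 to 67493 with coconut oil. Of 19 leukocyte markers 1 had an unadjusted p under 0.05 with a higher level and 0 with a lower level, although all 19 differences were positive (median 0.38). The 3 smallest p of the list belonged to CD4, which was under the floor in all 12 pigs, LAPTM5, which differed by 0.55 ± 0.25, and CORO1A, by 0.37 ± 0.17. The summed signal of the 19 markers was 11405 to 21474 with soybean oil, against 8861 to 19913 with coconut oil. Of 10 satellite cell and regeneration genes 2 had an unadjusted p under 0.05 with a higher level and 1 with a lower level (median 0.27). VCAM1 and NCAM1, adhesion molecules, differed by 0.60 ± 0.18 and 0.51 ± 0.18 and PAX3 by -0.44 ± 0.16. PAX3 was dim, under the floor in all 6 pigs fed soybean oil and in 5 of 6 fed coconut oil. With signals under the floor set to it PAX3 differed by -0.002. Nerve and Schwann markers gave 2 and 0 of 5 (median 0.28, but -0.01 without pig 20). Only 2 of the 5 had a mean signal at or above the floor. Across the alternative settings the median of the list lay between 0 and 0.69. MBP, a myelin protein, differed by 0.92 ± 0.37, with 3 of its other probe sets of opposite sign. Erythrocyte markers gave 0 of 4 in either direction (median -0.19). The summed signal of the fibroblast and matrix list was 102436 to 134533 with soybean oil, against 78996 to 110482 with coconut oil, and 5 of 6 pigs fed soybean oil lay above every pig fed coconut oil. The part of these cell types in the differences of single genes was not tested. Another probe set had the opposite sign for CD4 and LAPTM5 here, and elsewhere for LEP, TCF7L2, RABEPK, FADS2, UCP3 and MSMO1.

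Interferon response genes gave 2 higher and 0 lower of 20 (median 0.41). IRF9, a transcription factor of the interferon pathway, had signals of 214 to 626 (median 296) with soybean oil, against 149 to 337 (median 179) with coconut oil. MX1, an antiviral GTPase, had 326 to 1488 (median 483) with soybean oil, against 225 to 992 (median 276) with coconut oil, with pig 5 far above the other pigs fed coconut oil. They differed by 0.56 ± 0.20 and 0.78 ± 0.35. Polyunsaturated fatty acid and eicosanoid genes gave 4 higher (36.4%) and 0 lower of 11 (median 0.43, 0.06 with signals under the floor set to it). Their summed signal was 2500 to 3234 with soybean oil, against 1923 to 2469 with coconut oil, so that all 6 pigs fed soybean oil lay above all 6 fed coconut oil. Taken singly, however, the groups were apart in 0 of the 11 genes. A sum of signals is weighted to its brightest genes, and 7 of the 11 had a mean at or above the floor. PTGS1, the constitutive cyclooxygenase, had signals of 245 to 454 (median 311) with soybean oil, against 144 to 295 (median 234) with coconut oil, and differed by 0.59 ± 0.23. ALOX5AP, which presents arachidonic acid to 5-lipoxygenase, had 122 to 385 (median 209) with soybean oil, against 73.9 to 183 (median 120.1) with coconut oil, and differed by 0.85 ± 0.31. PTGS2, the inducible cyclooxygenase, was under the floor in all 12 pigs.

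Genes of oxidative metabolism leaned the other way by small amounts, and 0 of them passed. Of 22 genes of the tricarboxylic acid cycle, 21 had negative differences and 3 had an unadjusted p under 0.05 with a lower level and 0 with a higher level (median -0.19). IDH3A, a subunit of isocitrate dehydrogenase, had signals of 1468 to 2031 (median 1715) with soybean oil, against 1886 to 3145 (median 2274) with coconut oil, and differed by -0.44 ± 0.13. CS, citrate synthase, had 10778 to 13007 (median 12462) with soybean oil, against 12442 to 16048 (median 14298) with coconut oil, and differed by -0.26 ± 0.11. The groups overlapped for both. Of 54 oxidative phosphorylation genes 6 had an unadjusted p under 0.05 with a lower level and 0 with a higher level (median -0.09). ATP5B, the catalytic subunit of ATP synthase, had 18388 to 21168 (median 20352) with soybean oil, against 22078 to 27215 (median 24623) with coconut oil, and here all 6 pigs fed soybean oil lay below all 6 fed coconut oil. It differed by -0.28 ± 0.10 (adjusted p = 0.221 among the brighter probe sets), while ATP5J, another subunit, differed by -0.40 ± 0.14 and SDHA, of complex II, by -0.33 ± 0.12.

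Fatty acid oxidation genes gave 0 higher and 2 lower of 22 (median -0.13). ACSL1, which activates long-chain fatty acids, had signals of 5023 to 11666 (median 8193) with soybean oil, against 9137 to 12119 (median 10423) with coconut oil, and differed by -0.47 ± 0.20, and ETFDH, which passes electrons of β-oxidation to ubiquinone, by -0.34 ± 0.15. CPT1B, the muscle carnitine palmitoyltransferase, had 1189 to 3858 (median 2454) with soybean oil, against 1408 to 3280.4 (median 2873) with coconut oil, with ranges that largely coincide, and differed by -0.10 ± 0.25, between -0.22 and 0.05 when single pigs were left out. Of 13 PPAR and fuel switch genes 0 had an unadjusted p under 0.05 in either direction (median -0.08, but 0.08 without pig 9, 0.05 without pig 19 and 0.02 without pig 20). PPARGC1A, the coactivator of mitochondrial biogenesis, had 7673 to 23129 (median 16119.5) with soybean oil, against 16978 to 28387 (median 22608) with coconut oil, and differed by -0.63 ± 0.29 (unadjusted p = 0.0503). PDK4, which blocks glucose oxidation, differed by -0.21 ± 0.20 (-0.08 without pig 19), UCP3 by 0.20 ± 0.45 and VLDLR, a lipoprotein receptor, by -0.23 ± 0.11.

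No fibre gene had an unadjusted p under 0.05. The medians were -0.10 over 13 slow fibre genes and -0.09 over 13 fast fibre genes (0 genes in either list), with the slow fibre median at 0.02 without pig 9 and the fast fibre median at 0.01 after quantile normalization. MYH7, the slow myosin heavy chain, had 28599 to 51992 (median 36057) with soybean oil, against 38029 to 46920.4 (median 42241) with coconut oil, and differed by -0.20 ± 0.15 (-0.12 without pig 9). Of 25 glycolysis and glycogen genes 3 had an unadjusted p under 0.05 with a higher level and 0 with a lower level (median -0.05, 0.01 after quantile normalization). These were HK1, ALDOC and PFKP, isoforms of hexokinase, aldolase and phosphofructokinase that are not the predominant ones of adult muscle fibres, and they differed by 0.64 ± 0.16, 1.13 ± 0.36 and 0.40 ± 0.16. HK1 had signals of 571 to 876 (median 654) with soybean oil, against 338 to 546 (median 449) with coconut oil, with no overlap.

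In the atrophy and FOXO list, which had the lowest median of the 30 lists, 3 of 23 genes had an unadjusted p under 0.05 with a lower level and 1 with a higher level (median -0.21). FOXO1, the transcription factor that turns on protein breakdown in fasting muscle, had signals of 684 to 1307 (median 1048) with soybean oil, against 1340.5 to 2320.1 (median 1824) with coconut oil. FBXO32, its target atrogin-1, a muscle ubiquitin ligase, had 1468 to 9529 (median 5241) with soybean oil, against 9914 to 15876 (median 10775) with coconut oil. In both genes all 6 pigs fed soybean oil lay below all 6 fed coconut oil. FOXO1 differed by -0.85 ± 0.19 and FBXO32 by -1.25 ± 0.39, and neither passed (adjusted p = 0.0662 and 0.15 among the brighter probe sets, 0.196 and 0.317 among all). Pig 19 had the lowest FBXO32 signal, and the difference was -0.88 without it. A second, dim FOXO1 probe set differed by 0.63 ± 0.64. BNIP3L, a mitophagy receptor, went the other way with 937 to 1654 (median 1111) with soybean oil, against 623 to 1032 (median 669) with coconut oil, and a difference of 0.72 ± 0.17. GLUL, glutamine synthetase, differed by -0.09 ± 0.16 and by 0.02 after quantile normalization.

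Among brighter probe sets that carry 1 gene symbol, FOXO1 had the smallest unadjusted p of those with a lower level, and none of the 8 with the smallest p passed. Among the others, JOSD1, a deubiquitinase, differed by -0.74 ± 0.18, but 3 of 6 pigs fed soybean oil were under the floor. With signals under the floor set to it JOSD1 differed by -0.51, and its 2 other probe sets both differed by -0.22. SLC25A30, a mitochondrial carrier, differed by -0.97 ± 0.24, LARP4B, an RNA-binding protein, by -0.69 ± 0.18 and ZCCHC24 by -0.61 ± 0.16. SART1, a splicing factor, differed by -0.74 ± 0.21 and MON1A, an endosome traffic protein, by -0.38 ± 0.11. The adjusted p of the 8 among the brighter probe sets lay between 0.0662 and 0.13.

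**Figure D3:**
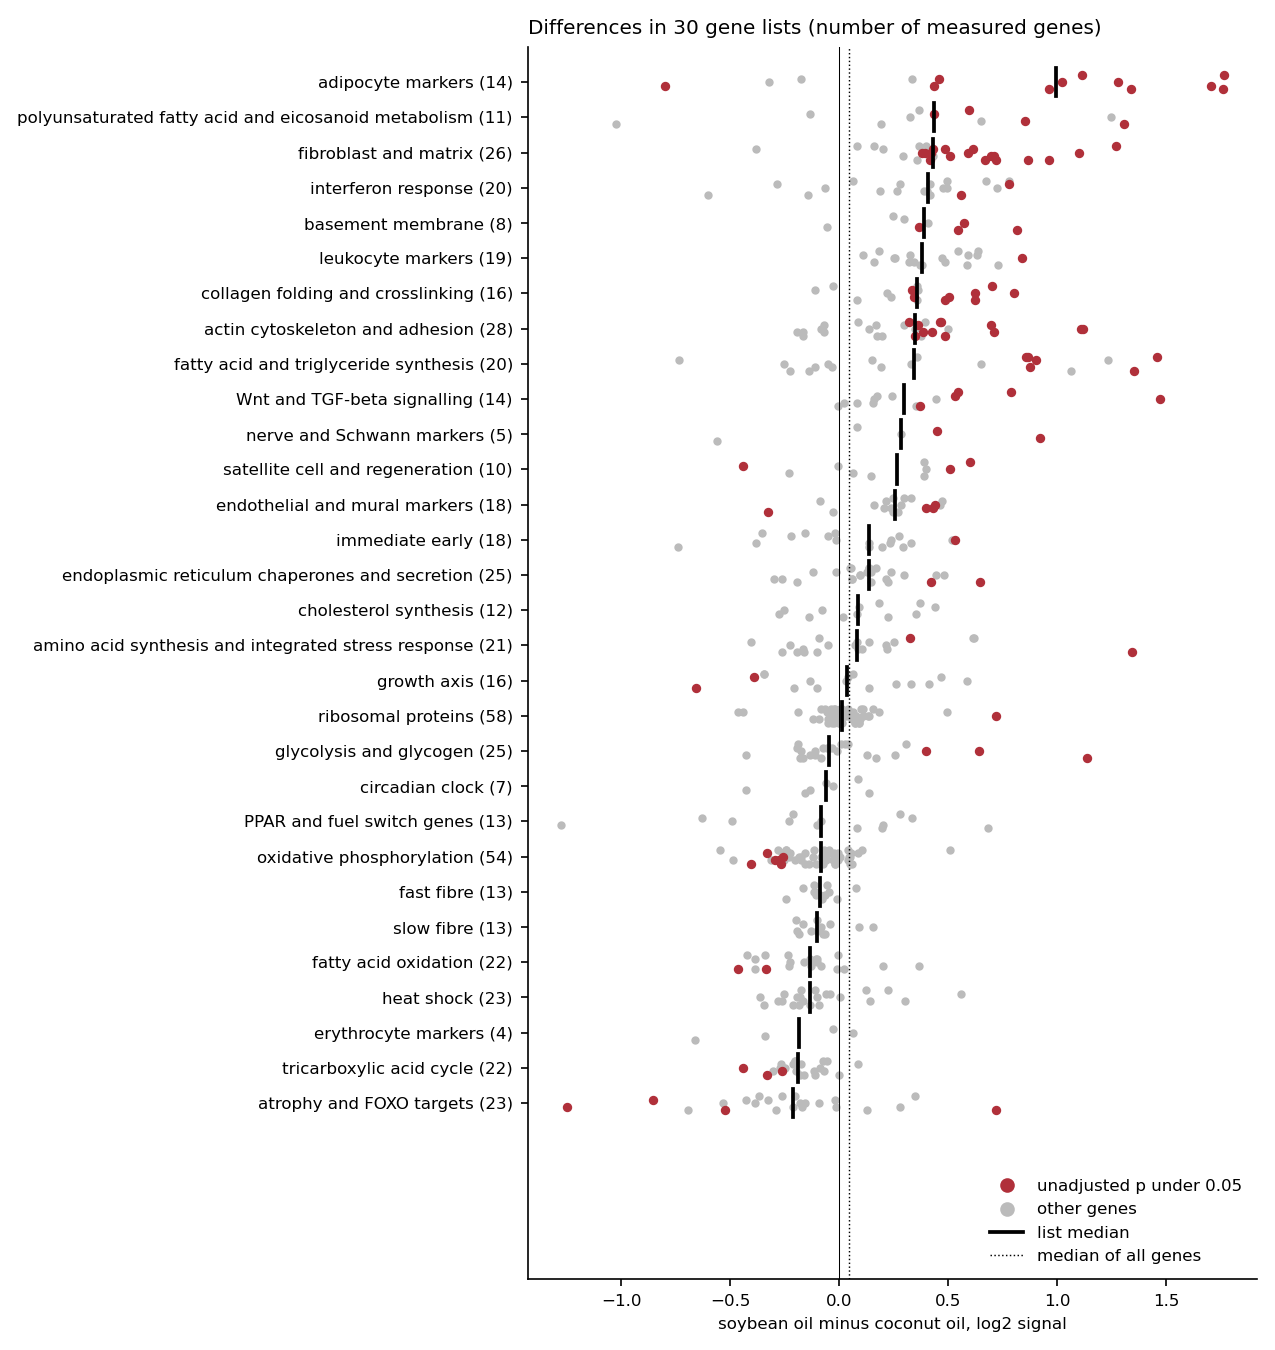
Soybean oil minus coconut oil differences (log2 signal) of every measured gene of 30 lists, 1 row per list with the number of genes, the list median as a bar and genes with an unadjusted p under 0.05 in red. The adipocyte list has the highest median (0.99) and the atrophy and FOXO list the lowest (-0.21), and the dotted line marks the median of all genes (0.04).

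The remaining lists covered growth, secretion, stress and ribosomes. Growth axis genes gave 0 higher and 2 lower of 16 (median 0.04, -0.06 on centred arrays -0.01 after quantile normalization, and -0.02 without pig 5 or pig 19), with GRB10, an adaptor that dampens insulin signalling, at 1956 to 4877 (median 3306) with soybean oil, against 4400.0 to 5932 (median 5010.1) with coconut oil, and a difference of -0.66 ± 0.21, and IGF1 at 0.33 ± 0.20 (0.20 without pig 6). Cholesterol synthesis gave 0 of 12 in either direction (median 0.09, -0.01 on centred arrays). Endoplasmic reticulum chaperones and secretion gave 2 higher and 0 lower of 25 (median 0.14), with KDELR3, a retrieval receptor, at 0.64 ± 0.19. Heat shock genes gave 0 of 23 (median -0.13), circadian clock genes 0 of 7 (median -0.06) and immediate early genes 1 higher and 0 lower of 18 (median 0.14), the last being CYR61 at 0.53 ± 0.23. Ribosomal proteins gave 1 higher and 0 lower of 58 (median 0.01, -0.08 on centred arrays, and below 0 without pig 11, 13, 20 or 23, at lowest -0.03), and the 1 was RPL3 at 0.72 ± 0.16.

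Within each sex the comparison had 3 pigs per fat. In gilts 1 probe set of 23999 (0.00417%) passed, a dim one without a symbol, in barrows 0 (0%) passed, and 0 (0%) passed for the barrow minus gilt difference of the fat difference. At an unadjusted p under 0.05 there were 1733 probe sets in gilts, 1944 in barrows and 1129 for the difference between the sexes, whose smallest adjusted p was 0.135. All 49 probe sets that passed among the brighter ones had the same sign in gilts and barrows, with a median size of 0.95 in gilts and 0.97 in barrows. They were chosen by the average difference in these same gilts and barrows, which favours equal signs and sizes. This agreement is therefore no separate support. FABP4 differed by 0.93 in gilts and 1.00 in barrows, ADIPOQ by 2.04 and 1.48, and FBXO32 by -1.06 and -1.43. ORMDL3 (1.11 in gilts, 0.54 in barrows) and the dimmer SFRP1 probe set (0.70 in gilts, 1.57 in barrows) were 2 of the 3 among the 49 with an unadjusted interaction p under 0.05 (0.0363 and 0.0478), and neither passed after adjustment. LPL differed by -0.01 in gilts and 0.68 in barrows, and the adipocyte list median was 0.89 in gilts and 1.05 in barrows. SC5D and MSMO1, enzymes of cholesterol synthesis, differed by -0.04 and -0.09 in gilts and by 0.92 and 0.79 in barrows, and the barrow minus gilt difference passed in neither gene (limma adjusted p = 0.996 and 0.996). The dim SREBF1 differed by -1.94 in gilts and 0.48 in barrows, and that difference did not pass either (limma adjusted p = 0.996). The leukocyte list had a median of 0.25 in gilts and 0.68 in barrows, and that difference was not tested.

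**Figure D4:**
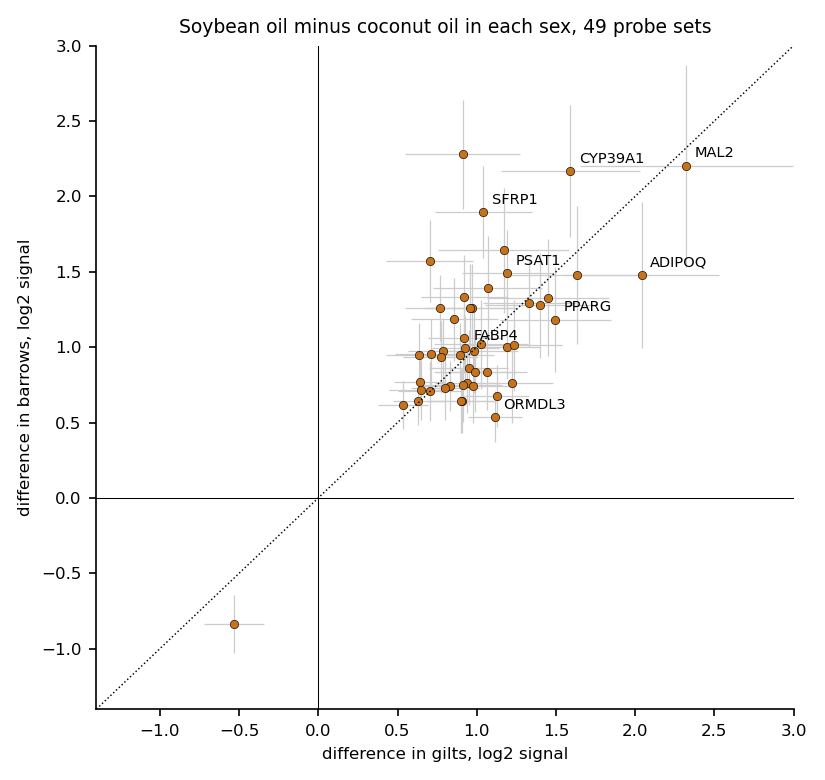
Soybean oil minus coconut oil differences (log2 signal) in barrows against those in gilts for the 49 probe sets that passed among the brighter ones, with SE bars (3 pigs per fat and sex) and the line of equality dotted. All 49 points lie in the quadrants of equal sign, 48 of them positive in both sexes. Choosing the probe sets by the average over the same gilts and barrows favours equal signs.

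The pigs fed olive oil or beef tallow show where the levels of these genes lay in the rest of the series, and no difference from these pigs was tested here. FABP4 averaged 13.57 ± 0.33 with soybean oil, 13.31 ± 0.89 with olive oil, 13.70 ± 0.62 with beef tallow and 12.61 ± 0.33 with coconut oil on the log2 scale (SD, n = 6 each). ADIPOQ averaged 11.52 ± 0.89 with soybean oil, 11.04 ± 1.57 with olive oil, 11.66 ± 1.35 with beef tallow and 9.76 ± 0.74 with coconut oil. Mean levels with coconut oil were the lowest of the 4 for both genes, and the spread between pigs was larger with olive oil and beef tallow than with the fats compared here. LIPA averaged 9.88 ± 0.26 with soybean oil, 9.63 ± 1.06 with olive oil, 9.88 ± 0.47 with beef tallow and 8.79 ± 0.19 with coconut oil. PSAT1 averaged 9.98 ± 0.41 with soybean oil, 9.46 ± 1.01 with olive oil, 10.13 ± 0.90 with beef tallow and 8.64 ± 0.26 with coconut oil. FBXO32 averaged 12.23 ± 0.94 with soybean oil, 12.58 ± 1.83 with olive oil, 12.28 ± 0.82 with beef tallow and 13.48 ± 0.27 with coconut oil, where the mean with coconut oil was the highest of the 4.

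**Figure D5:**
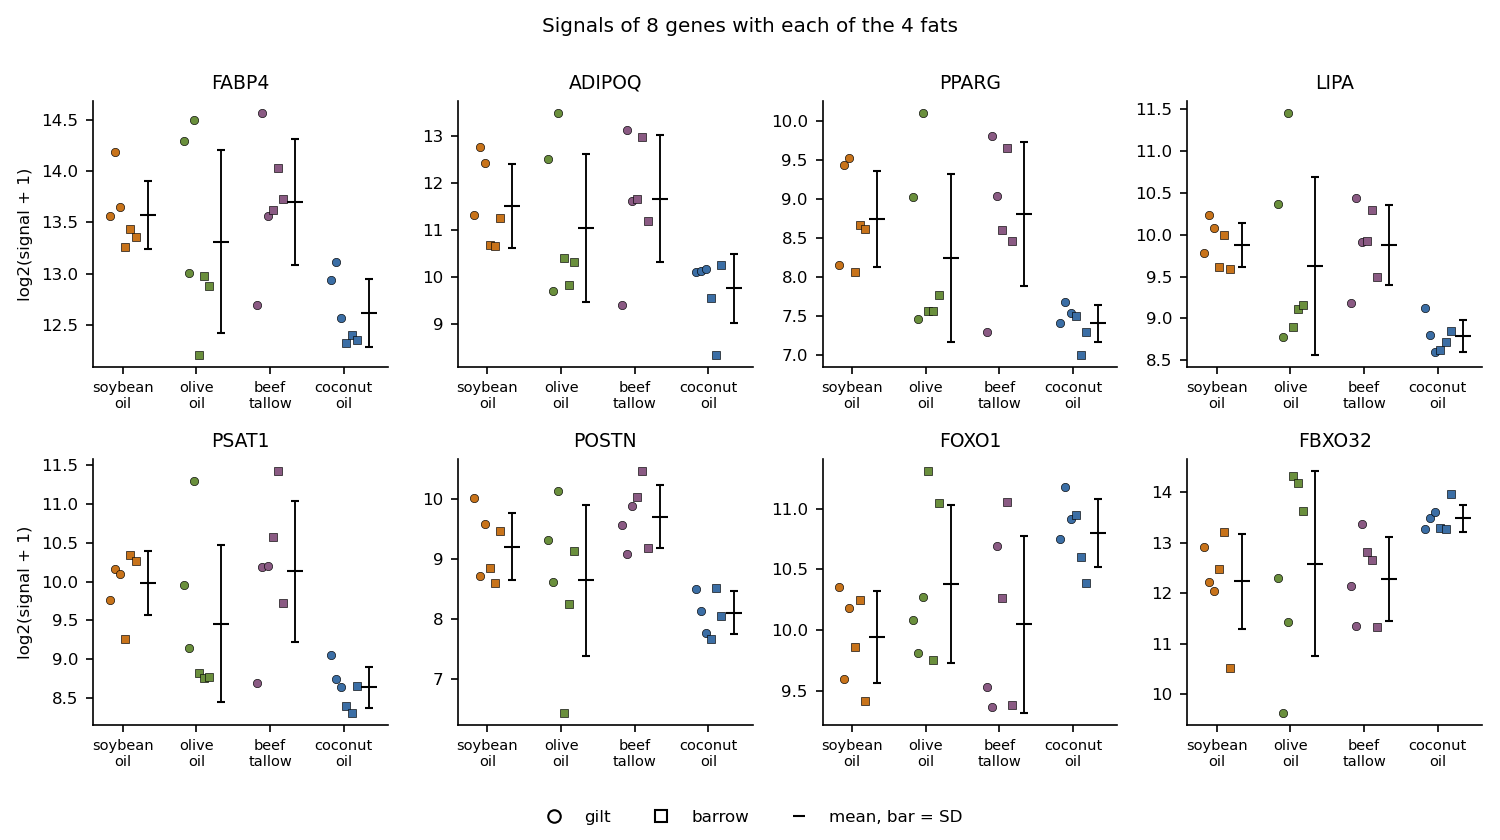
Log2(signal + 1) of 8 genes in each pig of the 4 fats, circles for gilts and squares for barrows, with mean and SD (n = 6). The means with coconut oil are the lowest of the 4 for FABP4, ADIPOQ, PPARG, LIPA, PSAT1 and POSTN and the highest for FOXO1 and FBXO32.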

How the data were processed

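Labelled RNA of 24 muscle samples was measured on a 1-colour Affymetrix porcine array, 1 array per pig. The values deposited by the authors are signal intensities of probe sets on a linear scale, as their range shows. The labels do not name the method that summarised the probes. On the values, the mean trimmed by 2% at each end was equal on all arrays (500.1), so the authors scaled the arrays to a common level before deposit. The table held 24123 probe sets, 124 of them controls, and of the other 23999 the array annotation gave 1 gene symbol for 10069, several for 198 and none for 13732. Of those with 1 symbol, 9961 were matched to RefSeq genes of assembly Sscrofa11.1, used for names alone. Precision is limited by the number of pigs.

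Signals were turned into log2(signal + 1). A model of fat plus sex was fitted to the 12 arrays (limma version 3.58.1, lmFit and eBayes, under R 4.3.3), two-sided, with Benjamini-Hochberg adjustment over all 23999 probe sets and a threshold of 0.05, and with cell means of fat and sex for each sex and the interaction. The script was tested on simulated data. A floor at the 40th percentile of the mean signal over 24 arrays (94.1) defined the 14399 brighter probe sets, whose results are reported beside those over all probe sets. For array-level values the fats were permuted exactly within gilts and within barrows (400 relabelings).

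The groups, the 30 gene lists and the rule for named genes were chosen with earlier results of these data known. The rule took probe sets with 1 symbol at or above the floor that passed over all probe sets (at most 15 in each direction) or, where fewer than 8 passed, the 8 smallest p, a listed set of metabolic and matrix genes, and the 3 smallest p of each list of at least 5 genes. Genes that passed above the floor were added. A gene with several probe sets is given by the one with the highest mean over the 24 arrays. Alternatives were all 24 arrays, filters at the 40th and 60th percentiles, quantile normalization, median centring, a pseudocount of 16, no sex covariate, cell means, 1 probe set per gene, array weights, a trended and robust spread, and each pig left out. After the data were seen, signals under the floor set to it and the same alternatives above the floor were added. The title numbers of the pigs run over all fats, but gilts and barrows carry separate runs of numbers. Whether sex also stands for handling was not tested. The numbers pair no samples, no scan date was used, and no array was left out.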

Additional observations from a re-analysis of the deposited data

Results flagged for a closer look

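In 268 groups of 6 pigs examined, 20 held a pig whose gap to the nearest other pig exceeded Dixon's critical share of the group's range, which is 7.46% where chance flags about 5 in 100. None of the 130 named probe sets had the fats fully apart in opposite directions in gilts and barrows. Other probe sets were not examined. Many were named for a small p of the average difference, which disfavours opposite directions.

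Pig 23, a barrow fed coconut oil, stood above the other 5 pigs fed coconut oil in 4 synthesis genes. Its gap took 0.911 of the range of log2 signal for SCD (5596, others 243 to 321), 0.753 for FASN (1830, others 177 to 315), 0.749 for ELOVL6 (1650, others 358 to 526) and 0.644 for DGAT2 (781, others 196 to 320.3).

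Pig 20, also fed coconut oil, was lowest for ADIPOQ (324, others 746 to 1221, gap 0.628), JOSD1 (98.5, others 148 to 179, gap 0.685) and SLC25A30 (364, others 554 to 671, gap 0.688), and highest for BTG2, an immediate early gene (10037, others 4804 to 6209, gap 0.652), and TCF7L2 (200.2, others 134 to 155, gap 0.642). Pig 15 was lowest for TES (136, others 257 to 373, gap 0.630) and highest for the fibre genes TPM1, a tropomyosin (55423, others 40824 to 41694, gap 0.931), and PYGM, muscle glycogen phosphorylase (51464, others 38009 to 42196, gap 0.655). Pig 5 was highest for MX1 (992, others 225 to 312, gap 0.778), SRI (828, others 453 to 546, gap 0.692) and PFKP (332, others 204 to 241, gap 0.656) and lowest for ARHGAP35 (1626, others 2443 to 3008, gap 0.662). Pig 1 was highest for FKBP10 (301, others 155 to 196, gap 0.648).

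Among pigs fed soybean oil, pig 9 was highest for TCF7L2 (322, others 186 to 222, gap 0.675) and pig 11 for VAMP8 (1203, others 779.5 to 876, gap 0.732). The mean correlation of pig 11 with the other arrays was 0.912, against 0.928 to 0.933 for the other 5 pigs (gap 0.762).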

How the results depend on the processing

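Over all probe sets, where 0 passed, the count was 3 with all 24 arrays, 49 above the 40th and 102 above the 60th percentile of mean signal, 1 with cell means, 59 with trended and robust spread, 30 with 1 probe set per gene and 4 with signals under the floor set to it, and 0 to 2 when single pigs were left out. It was 0 with quantile normalization, median centring, a pseudocount of 16, array weights and no sex covariate (2361 to 2708 at an unadjusted p under 0.05). In gilts the count of 1 became 2 above the 40th percentile and 2 with a pseudocount of 16, and 1 to 6 without single pigs. In barrows and for the difference between the sexes it was 0 to 3. The 49 of the brighter probe sets became 4 after quantile normalization, 0 after median centring, 0 with all 24 arrays, 85 with trended and robust spread and 11 without the sex covariate, and 0 to 79 without single pigs; a pseudocount of 16 gave 54 and array weights 67. The difference in array medians was 0.07 to 0.11 without single pigs. Of 3073 recomputed differences of named probe sets, 4 turned their sign: GLUL at 0.021 after quantile normalization, UCP3 (-0.078 to 0.488 without single pigs) and CPT1B (-0.224 to 0.047). No paired analysis was possible because the title numbers differ for every pig. The causes were not tested. Differences of probe sets near the floor are bounded by background, and 6 pigs per fat limit the rest.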
